A study of Mus musculus with 6 samples.

Results

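Ide, Fgfbp3, Entpd4, Gm16867, Wdfy1, Gm5512, Yy2, Nnt and Cyfip2 are 9 genes whose RNA level in mouse brown fat either stood apart between the 2 genotypes of the study or which are known to vary between the substrains of C57BL/6 mice (Nnt and Cyfip2). They were chosen by name from a table of 54385 rows, on the strength of this same comparison, and they fill 10 rows of it because Nnt has 2. Their genotype differences are therefore described below without a test. Interscapular brown adipose tissue, which burns lipid to warm the body, was taken at 20 weeks of age from chow-fed C57BL/6N mice, and its polyadenylated RNA was sequenced from 3 libraries of wild type (WT, labelled wt/wt) and 3 of ADCY3∆AT. The ADCY3∆AT mice lack Adcy3-AT, a truncated, cold-induced form of adenylyl cyclase 3. Each sample's own label calls the tissue interscapular, while the series' design text calls it inguinal. How the line was made, how far its background matches that of the wild type beyond the shared C57BL/6N label, and whether replicates are separate mice is not stated in the sources used here, and p-values cover only the spread between these libraries, which may be technical. The table holds expression values and no genotypes of other loci, so a difference in genetic background between the groups cannot be told apart from the Adcy3 allele.

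Inbred mouse colonies that were separated long ago have each fixed their own small mutations and copy number changes, and some of these alter the RNA level of the gene that carries them. C57BL/6J, the strain of the reference genome, carries a deletion of exons of Nnt, the inner mitochondrial membrane enzyme that makes NADPH from NADH with the proton gradient. C57BL/6N carries a missense change in Cyfip2, a subunit of the WAVE complex that controls branching of actin. The copy number of a segment with Ide and Fgfbp3 is known to vary among C57BL/6J mice. Several of the other genes have a near-identical copy elsewhere in the genome, and estimated counts can divide the reads of such copies between rows.

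The sequences below show how close Gm5512 is to Rmnd1, on which the result for Gm5512 turns, and how Yy2 differs from Yy1. The result for Yy2 turns instead on Mbtps2, which contains it and is not printed. The printed sequences were read from the GENCODE M21 transcripts of GRCm38, 5′ to 3′. Capitals stand at each base that differs between the members of a pair. Gm5512 is annotated as a transcribed unprocessed pseudogene with 1 exon (chr19:12905320-12906841, plus strand). Its whole transcript of 1522 bases aligned to the Rmnd1 transcript at 99.54% identity, with 7 differences, all within the coding sequence of Rmnd1. Rmnd1, a nuclear gene needed for translation in mitochondria, lies on another chromosome (chr10:4401915-4432388, minus strand), and the matching part is spread over 12 of its exons. The longest run without a difference was 433 bases, and the stretch of 120 bases below holds 3 of the 7 differences, at positions 898, 924 and 951 counted from 1 at the 5′ end of the Gm5512 transcript. It covers chr19:12906166-12906285 (plus strand) in Gm5512 and spliced exons between the ends of chr10:4411721-4414544 (minus strand) in Rmnd1.
Gm5512: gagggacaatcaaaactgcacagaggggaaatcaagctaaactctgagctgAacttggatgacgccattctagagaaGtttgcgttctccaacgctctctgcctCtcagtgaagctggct
Rmnd1: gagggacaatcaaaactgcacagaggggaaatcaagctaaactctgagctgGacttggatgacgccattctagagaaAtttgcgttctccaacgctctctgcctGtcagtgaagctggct

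Yy2 (chrX:157566119-157568985, minus strand, 1 exon) encodes a zinc finger transcription factor that arose by retrotransposition from Yy1. It lies inside Mbtps2, the gene of a protease that cleaves membrane-bound transcription factors, on the same strand. The whole Yy2 transcript of 2867 bases is contained without a mismatch in 2 of the 8 annotated Mbtps2 transcripts, and in the one of 3890 bases it fills positions 852 to 3718. The annotated coding part of that Mbtps2 transcript has 1134 bases, as has that of Yy2. Yy1 is much further from Yy2 than Mbtps2 is. A stretch of 120 coding bases (Yy2 at chrX:157567737-157567856, minus strand, coding bases 913 to 1032, and Yy1 in spliced exons between the ends of chr12:108814723-108815550, plus strand, coding bases 1021 to 1140) had 103 identical bases and 17 differences.
Yy2: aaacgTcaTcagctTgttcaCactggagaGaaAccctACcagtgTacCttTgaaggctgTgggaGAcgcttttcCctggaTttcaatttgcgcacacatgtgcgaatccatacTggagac
Yy1: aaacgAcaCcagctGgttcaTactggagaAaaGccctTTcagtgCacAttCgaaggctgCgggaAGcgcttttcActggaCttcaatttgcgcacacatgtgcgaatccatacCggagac

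Library totals ran from 13758492 to 19592156 estimated counts. Adcy3 itself was at 208 ± 40.7 CPM (counts scaled to the size of the library; SD, n = 3) in WT and 201 ± 36.5 CPM in ADCY3∆AT, while an added row of the table that has no gene symbol held 215, 197 and 118 CPM in WT and 1.27, 0 and 0 CPM in ADCY3∆AT. The 6 brown adipocyte markers summed to between 6521 and 8097 CPM in every library, and 0 of them were called by edgeR, with 1 at an unadjusted p under 0.05. Skeletal muscle markers summed to 20.7, 107 and 621 CPM in the WT libraries and to between 1.22 and 2.48 CPM in the ADCY3∆AT libraries, with 6 of 7 tested markers called lower and none of the 8 at 0 in all ADCY3∆AT libraries. In bulk tissue, fewer cells of a type and less RNA per cell cannot be told apart. The part of muscle RNA in the values below was not tested. White adipocyte markers summed to between 48.3 and 147 CPM in WT and between 31.9 and 77.8 CPM in ADCY3∆AT, and 1 of the 4, Lep, was called lower. In the other 5 marker lists edgeR called 0. An unadjusted p under 0.05 was found for 3 of 5 nerve and Schwann cell markers and 1 of 3 endothelial ones. It was found for 0 of 5 macrophage and 0 of 3 erythroid markers. Of the 7 lymphocyte markers only 1 was tested, without such a p, so that list says little.

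Of the 10 rows, 9 passed the filter on low counts and 6 were called by edgeR at an adjusted p under 0.05, 1 of them higher and 5 lower in ADCY3∆AT. Among all genes tested, 14332 in number, 4.3% were called, 2.63% in the higher and 1.67% in the lower direction (377 and 239 genes, or 282 and 274 with upper-quartile scaling). The 3 libraries of each genotype did not overlap in 7 of the 10 rows, and in 29% of all tested genes. As the rows were chosen on this contrast, nothing is read from these counts. The 9 genes lie on 6 chromosomes, and none of them is on chromosome 12, where Adcy3 lies (chr12:4133103-4213525).

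**Figure D1:**
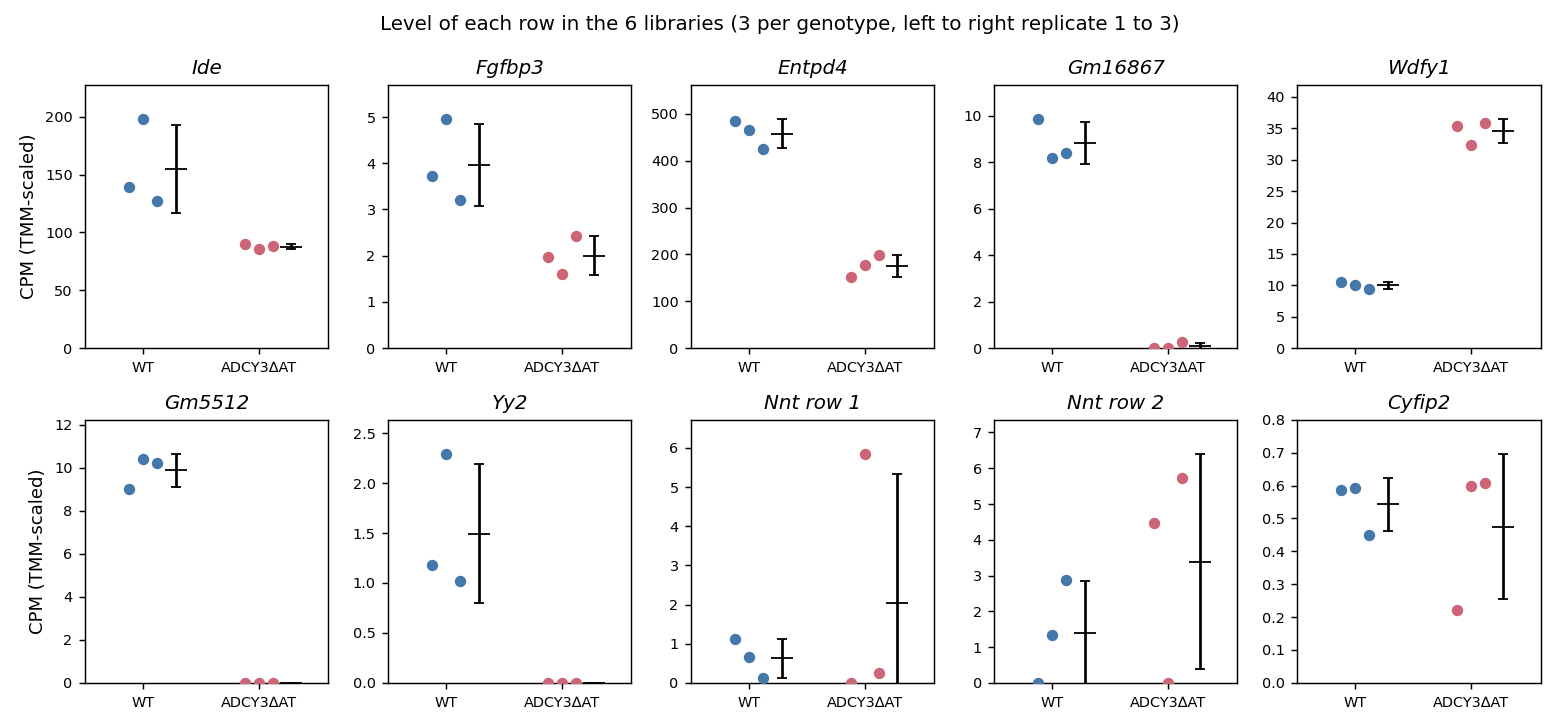
TMM-scaled CPM (linear axes from 0) of each of the 10 rows in the 3 WT libraries (blue) and the 3 ADCY3∆AT libraries (red), with the mean and SD per genotype as black bars. The genotypes do not overlap for Ide, Fgfbp3, Entpd4, Gm16867, Wdfy1, Gm5512 and Yy2, and overlap for either row of Nnt and for Cyfip2.

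Wdfy1 was the only one of the rows whose libraries were all higher in ADCY3∆AT. It encodes a protein with a FYVE domain and WD40 repeats that binds endosomal membranes and takes part in signalling from the RNA sensor TLR3. Its gene lies at chr1:79702262-79776143 (minus strand), and its level was 10.5, 10.1 and 9.36 CPM in WT and 35.5, 32.4 and 35.8 CPM in ADCY3∆AT. The lowest ADCY3∆AT library was thus far above the highest WT library, and both genotypes varied little. The mean was 9.97 ± 0.58 CPM in WT and 34.6 ± 1.87 CPM in ADCY3∆AT (SD, n = 3 each), 3.47-fold higher, a log2 fold change of 1.79 (SE 0.09, 95% interval 1.59 to 2.00). Mrpl44, a mitochondrial ribosome protein gene that overlaps Wdfy1 on the opposite strand, was at 35.2, 36.1 and 35.1 CPM in WT and 32.8, 33.9 and 33.3 CPM in ADCY3∆AT. Mrpl44 was not called by edgeR (log2 fold change -0.09, SE 0.07, adjusted p = 0.469). Reads from the overlap cannot be told apart, since no source used here says if strand entered the counting. The nearest tested genes on either side were Serpine2 at 18.1 kb (0.14, adjusted p = 0.614) and Ap1s3 at 30.3 kb (-0.50, adjusted p = 0.279), and neither was called by edgeR.

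Entpd4 was the most abundant of the genes and was lower in each ADCY3∆AT library than in each WT library. It encodes a nucleoside diphosphatase of the Golgi and lysosomes. The gene lies at chr14:69337174-69367270 (plus strand, 13 exons in its longest transcript). Its level was 485, 465 and 424 CPM in WT and 152, 177 and 198 CPM in ADCY3∆AT. No library came near those of the other genotype. The mean was 458 ± 30.7 CPM in WT and 176 ± 23.3 CPM in ADCY3∆AT (SD, n = 3 each), or 0.384 of the WT level, a log2 fold change of -1.38 (SE 0.10, 95% interval -1.62 to -1.14). Each value rests on 2662 to 7529 estimated counts. A second gene, Entpd4b, lies further along the same chromosome (chr14:69555424-69585520, plus strand), and its transcript is identical to that of Entpd4 over all 3589 bases. Entpd4b has no row of its own, so the Entpd4 row may stand for RNA of either gene.

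Gm16867, annotated as protein coding, was listed at or near 0 in every ADCY3∆AT library. It overlaps the 3′ end of Entpd4 on the opposite strand (chr14:69363504-69503362, minus strand), and 1133 bases of their transcripts are shared in reverse. Its level was 9.86, 8.20 and 8.40 CPM in WT and 0, 0 and 0.25 CPM in ADCY3∆AT. In estimated counts this was 151, 111 and 149 against 0, 0 and 4.55. Of the ADCY3∆AT libraries, only replicate 3 had an estimated count above 0 in the row. Summed and rounded, 411 counts stood against 5, a ratio of CPM of 93.5 (95% interval 39.7 to 289, for counting error only). The interval leaves out how reads were divided between this row and its copy, described next. The log2 fold change was -6.45 (SE 0.54), and -10.14 without ADCY3∆AT replicate 3, a value that depends on the prior count because the other 2 libraries are at 0.

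A second copy of this gene was lower as well. Gm27177, annotated as antisense (chr14:69582164-69683286, minus strand), shares 2846 bases without a mismatch with Gm16867, 79.2% of the Gm16867 transcript, and overlaps Entpd4b as Gm16867 overlaps Entpd4. It was at 1.70, 2.96 and 6.76 CPM in WT and 0.44, 1.00 and 0.35 CPM in ADCY3∆AT (log2 fold change -2.72, SE 0.59, edgeR adjusted p = 0.0440). The libraries did not overlap, but the adjusted p was between 0.0755 and 0.12 without WT replicate 2, WT replicate 3 or any of the ADCY3∆AT replicates, and 0.0451 without WT replicate 1. In WT its libraries stood in the same order as the skeletal muscle sum, which was also low in all 3 ADCY3∆AT libraries. Whether muscle RNA has a part in this row was not tested, and the order of 3 libraries cannot decide it. With the Gm16867 and Gm27177 rows summed the level was 11.6, 11.2 and 15.2 CPM in WT and 0.44, 1.00 and 0.61 CPM in ADCY3∆AT, a log2 fold change of -4.23 (SE 0.27, 95% interval -4.84 to -3.62). The sum was low in every ADCY3∆AT library, so the low Gm16867 row was not offset by its copy. Both rows also share 1133 bases in reverse with Entpd4, which was far more abundant and itself lower in ADCY3∆AT. As it is not known if strand entered the counting, reads of Entpd4 in these rows cannot be told apart. Slc25a37, which imports iron into mitochondria and shares 339 bases with Gm16867, was at 12.01, 12.2 and 13.8 CPM in WT and 7.87, 12.6 and 10.7 CPM in ADCY3∆AT (log2 fold change -0.30, SE 0.17, edgeR adjusted p = 0.338). Its libraries overlapped.

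Gm5512, the copy of Rmnd1 shown above, was listed at 0 in every ADCY3∆AT library. In WT it held 9.01, 10.4 and 10.2 CPM, from 138, 141 and 181 estimated counts. No fold is given, because an estimated count of 0 depends on how reads were divided between this row and Rmnd1. Rmnd1 went the other way, with 61.3, 60.4 and 56.9 CPM in WT and 82.1, 69.5 and 69.3 CPM in ADCY3∆AT. Its libraries did not overlap, and its log2 fold change of 0.31 (SE 0.09) missed the threshold at an edgeR adjusted p of 0.0844. Summed, the 2 rows held 70.4, 70.8 and 67.1 CPM in WT and 82.1, 69.5 and 69.3 CPM in ADCY3∆AT. The genotypes overlapped in the sum, and its log2 fold change was 0.09 (SE 0.08, 95% interval -0.11 to 0.28). The difference at Gm5512 was thus not present in the sum of the 2 rows.

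Yy2 was likewise listed at 0 in every ADCY3∆AT library, from a lower level in WT. Its row held 1.18, 2.29 and 1.01 CPM in WT, from 18.1, 30.9 and 17.7 estimated counts, and 0 in all 3 ADCY3∆AT libraries. No fold is given here either, since the reads could be divided between 2 rows. Mbtps2, 2 of whose transcripts contain all of Yy2, was at 8.49, 8.87 and 6.37 CPM in WT and 9.19, 8.97 and 9.06 CPM in ADCY3∆AT (log2 fold change 0.20, SE 0.15, edgeR adjusted p = 0.453). Summed, the rows held 9.66, 11.1 and 7.33 CPM in WT and 9.19, 8.97 and 9.06 CPM in ADCY3∆AT. The WT libraries lay on both sides of the ADCY3∆AT libraries, and the log2 fold change of the sum was -0.04 (SE 0.16, 95% interval -0.40 to 0.32). In WT, Yy2 made up 12.2%, 20.5% and 13.6% of the sum. A part of that size is small beside the interval, so the sum cannot tell if the Yy2 difference was offset in Mbtps2. Yy1, the parent gene of Yy2, was at 51.2, 52.8 and 57.04 CPM in WT and 61.2, 62.3 and 62.0 CPM in ADCY3∆AT (0.20, SE 0.07, edgeR adjusted p = 0.132), and it did not share a stretch long and close enough with Yy2 to count as a partner (90% identity over 200 bases).

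**Figure D2:**
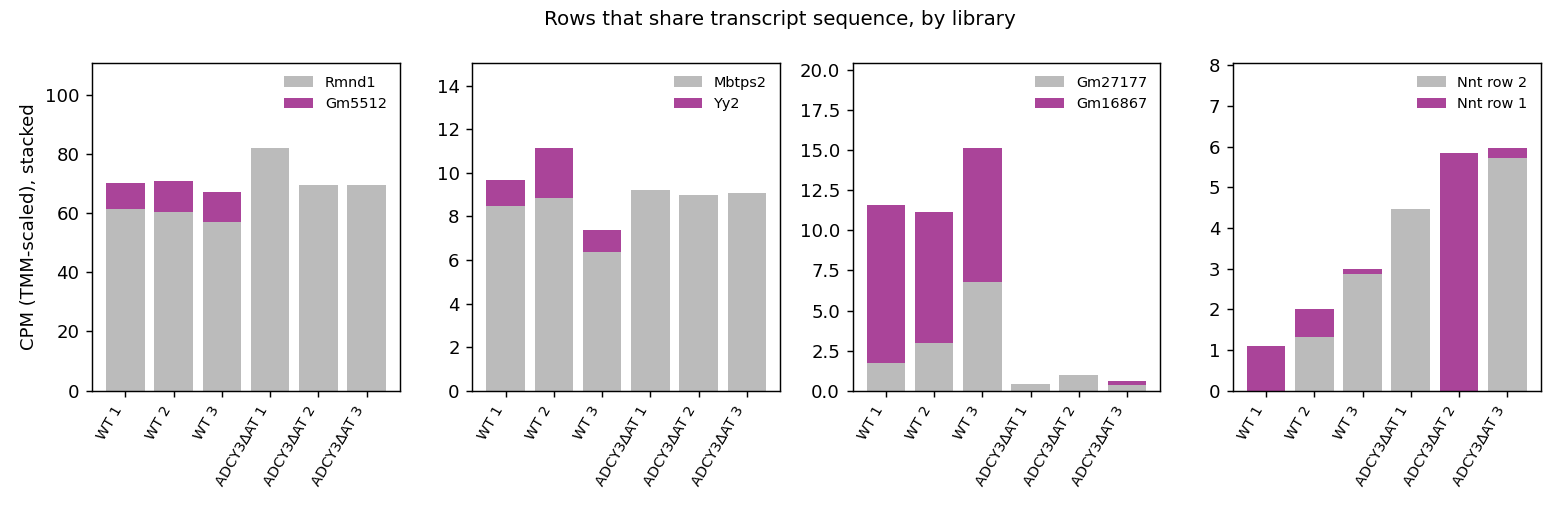
TMM-scaled CPM of 4 pairs of rows that share transcript sequence, stacked for each of the 6 libraries (linear axes from 0). Gm5512 on Rmnd1 and Yy2 on Mbtps2 reach sums that overlap between genotypes, Gm16867 on Gm27177 stays lower in all 3 ADCY3∆AT libraries, and the 2 Nnt rows trade places between libraries while their sum is higher in ADCY3∆AT.

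Nnt showed its difference only when its rows were added. The annotation gives this gene 2 identifiers at almost the same position (chr13:119335448-119408997 and chr13:119335528-119408952, minus strand), and 3339 bases of their transcripts are identical. The row ENSMUSG00000025453 held 1.11, 0.67 and 0.11 CPM in WT and 0, 5.85 and 0.25 CPM in ADCY3∆AT, and the row ENSMUSG00000116207 held 0, 1.33 and 2.88 CPM in WT and 4.46, 0 and 5.72 CPM in ADCY3∆AT. In 2 of the 6 libraries all counts sat in the first row, in 1 they all sat in the second, and the genotypes overlapped in either row. The sum was 1.11, 2.00 and 2.99 CPM in WT and 4.46, 5.85 and 5.97 CPM in ADCY3∆AT. The genotypes then no longer overlapped, with a mean of 2.03 ± 0.94 CPM in WT and 5.43 ± 0.84 CPM in ADCY3∆AT (SD, n = 3 each). The sum was 2.67-fold higher in ADCY3∆AT, a log2 fold change of 1.40 (SE 0.32, 95% interval 0.67 to 2.13), from 17 to 118 estimated counts per library. Nnt was low in both genotypes: per kb of its longest transcript the summed level was 1.08 CPM over the 6 libraries, at the 24.8th percentile of tested genes, whose median was 3.76 CPM per kb. Idh2, another mitochondrial source of NADPH, was at 151 CPM per kb over the 6 libraries. Me3, a further one, was far lower than Idh2, at 10.1 CPM per kb in WT and 9.43 in ADCY3∆AT. Library by library, the Nnt sum in WT stood in the same order as the skeletal muscle sum, with WT replicate 3 highest in both. The ADCY3∆AT libraries had the higher Nnt and the lower muscle sum. A part of muscle RNA in the Nnt sum was not tested.

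Ide and Fgfbp3 were both lower in ADCY3∆AT, by similar factors, and both were highest in WT replicate 2. Ide encodes insulin-degrading enzyme, a zinc metallopeptidase of the M16 family that cleaves insulin and other short peptides. It lies at chr19:37268743-37337852 (minus strand, 24 exons in its longest transcript). Its level was 140, 198 and 127 CPM in WT and 89.6, 85.5 and 88.2 CPM in ADCY3∆AT. All WT libraries were above all ADCY3∆AT libraries, and the 3 ADCY3∆AT libraries lay close together while those of WT did not. The mean was 155 ± 37.8 CPM in WT and 87.8 ± 2.10 CPM in ADCY3∆AT (SD, n = 3 each), or 0.567 of the WT level, a log2 fold change of -0.82 (SE 0.15, 95% interval -1.16 to -0.47). Fgfbp3, which encodes a secreted carrier of fibroblast growth factors, lies at chr19:36917550-36919615 (minus strand, 2 exons). It was at 3.72, 4.95 and 3.21 CPM in WT and 1.98, 1.59 and 2.43 CPM in ADCY3∆AT, from 24 to 67 estimated counts per library. The libraries did not overlap, and they gave a log2 fold change of -0.97 (SE 0.25, 95% interval -1.54 to -0.39).

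The 349.1 kb between Fgfbp3 and Ide hold 3 other tested genes, which did not share one direction. March5, a ubiquitin ligase of the outer mitochondrial membrane and the gene nearest to Ide (46.6 kb), was at 229, 242 and 222 CPM in WT and 239, 221 and 229 CPM in ADCY3∆AT (log2 fold change -0.01, SE 0.07, edgeR adjusted p = 0.956). Cpeb3, an RNA-binding regulator of translation, was at 31.0, 34.1 and 29.2 CPM in WT and 19.4, 24.4 and 24.5 CPM in ADCY3∆AT. Its libraries did not overlap, and its log2 fold change of -0.47 (SE 0.11) missed the threshold at an edgeR adjusted p of 0.059. Btaf1, which removes TATA-binding protein from DNA and lies 6.5 kb from Fgfbp3, was at 16.1, 19.4 and 12.5 CPM in WT and 14.9, 17.6 and 18.0 CPM in ADCY3∆AT (0.08, SE 0.16, edgeR adjusted p = 0.821). On the outer sides, Tnks2, a poly-ADP-ribose polymerase 24.1 kb from Fgfbp3, was called higher in ADCY3∆AT. It held 58.2, 59.7 and 51.7 CPM in WT and 71.7, 75.3 and 73.5 CPM in ADCY3∆AT (0.38, SE 0.08, edgeR adjusted p = 0.0344). That call held without ADCY3∆AT replicate 1 (adjusted p = 0.0482) and ended without any of the other 5 libraries (0.0587 to 0.117). The transcription factor gene Hhex, 97.0 kb beyond Ide, was not called by edgeR (-0.46, SE 0.32, adjusted p = 0.434).

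Cyfip2 (chr11:46193850-46312859, minus strand, 31 exons in its longest transcript) did not stand apart. It held 0.59, 0.59 and 0.45 CPM in WT and 0.22, 0.60 and 0.61 CPM in ADCY3∆AT, from 9, 8 and 8 counts against 4, 9 and 12. The lowest and the highest library were both ADCY3∆AT. The row did not pass the filter on low counts, and with no filter its log2 fold change was -0.16 (SE 0.56). The change known from C57BL/6N is in the protein sequence, which a table of levels does not show.

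The spread between libraries was not alike among the genes. The coefficient of variation of the median tested gene was 10.5% in either genotype. Wdfy1 was below it in both (5.83% in WT and 5.42% in ADCY3∆AT), and so was Gm5512 in WT (7.68%), whereas Entpd4 was below it in WT (6.7%) and above it in ADCY3∆AT (13.3%). Ide varied by 24.4% in WT and by 2.39% in ADCY3∆AT, Fgfbp3 by 22.6% and 20.9%, and Yy2 by 46.5% in WT. A steady level within each genotype thus held for Wdfy1, but in WT not for Ide, Fgfbp3 or Yy2. The median was not matched for level. By level among tested genes, Ide was at percentile 93.1, Fgfbp3 at 24.8 and Yy2 at 4.4, so low counts may add to the spread of Fgfbp3 and Yy2.

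Per kb of the longest annotated transcript, Entpd4 was the most abundant of the genes in WT (128 ± 8.55 CPM per kb) and Ide came next (31.2 ± 7.61), followed by Gm5512 (6.49 ± 0.50). Gm16867 (2.46 ± 0.25), Fgfbp3 (2.24 ± 0.50) and Wdfy1 (2.19 ± 0.13) did not differ from each other beyond their spread, nor did Nnt (0.59 ± 0.27, both rows) and Yy2 (0.52 ± 0.24), and Cyfip2 was lowest (0.082 ± 0.012; SD, n = 3 for each). In ADCY3∆AT the order was Entpd4 (48.9 ± 6.49 CPM per kb), Ide (17.7 ± 0.42), Wdfy1 (7.60 ± 0.41), Nnt (1.57 ± 0.24), Fgfbp3 (1.13 ± 0.24) and Cyfip2 (0.071 ± 0.033), with Gm16867, Gm5512 and Yy2 at or near 0. Wdfy1 stood level with Fgfbp3 in WT and well above it in ADCY3∆AT.

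The genes around these loci were chosen by position alone. Within 1 Mb of the 9 genes, 73 of 385 other annotated genes were tested and 3 were called by edgeR (4.11%), 1 higher and 2 lower, beside 4.3% of all tested genes. An unadjusted p under 0.05 was found for 17 of the 73, and for 3234 of all 14332. The median log2 fold change was 0.07 around the genes and -0.01 over all tested genes. Without the 3 tested neighbours that share sequence with one of the 9 genes (Gm27177, Slc25a37 and Mbtps2), 2 of 70 were called (2.86%), a count added after the data were seen. Neither share was above that of the whole table. Within 0.5 Mb, 3 of 46 were called, a share above 4.3%, so the statement holds for the 1 Mb window used here. By locus, 1 of 16 tested neighbours was called around Ide and Fgfbp3 (Tnks2), 1 of 18 around Entpd4 and Gm16867 (Gm27177, the copy of Gm16867), 0 of 8 around Wdfy1, 0 of 11 around Gm5512, 0 of 2 around Yy2, 1 of 11 around Nnt and 0 of 7 around Cyfip2. At an unadjusted p under 0.05 the loci with none called had 0 (Wdfy1), 2 (Gm5512), 0 (Yy2) and 3 (Cyfip2). The same window around Adcy3 held 22 tested genes, of which edgeR called 0 and 5 had an unadjusted p under 0.05. The called neighbour of Nnt was Nim1k, a protein kinase gene 301 kb away, at 5.22, 6.21 and 4.51 CPM in WT and 2.20, 2.86 and 3.04 CPM in ADCY3∆AT (-0.97, SE 0.21, edgeR adjusted p = 0.0416). Its direction was opposite to that of the Nnt sum, and its call ended without any 1 of the 6 libraries (0.0604 to 0.135).

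**Figure D3:**
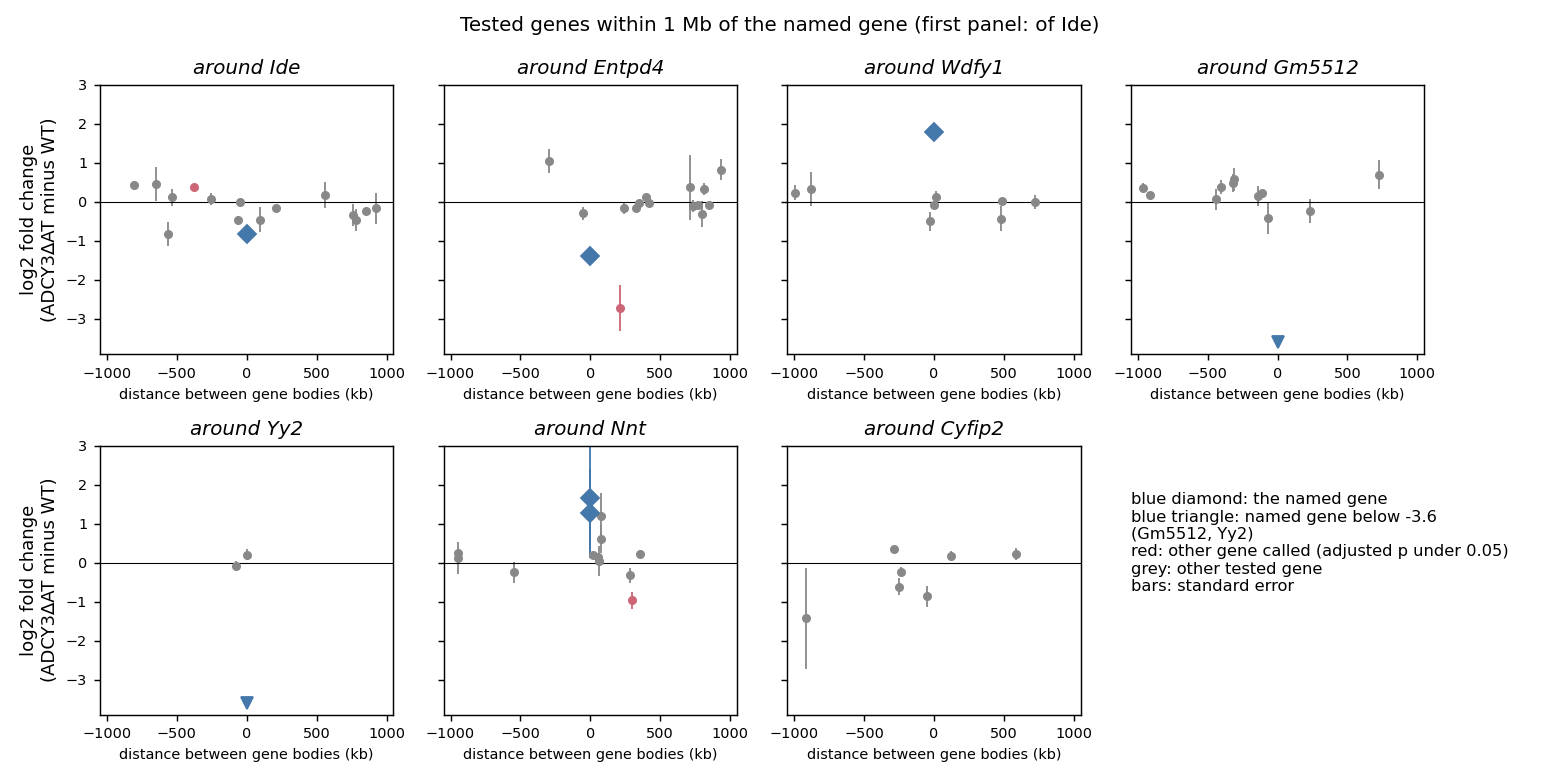
Log2 fold change (ADCY3∆AT minus WT, linear axis in log2 units, bars for the SE) of tested genes within 1 Mb of 7 of the genes against the distance in kb between gene bodies, with the named gene in blue at 0, called neighbours in red and other neighbours in grey. Gm5512 and Yy2 lie below the axis and are drawn at its foot, and Cyfip2, which was not tested, has no blue point. Nnt has a blue point for each of its 2 rows. Most neighbours lie near 0, and 3 were called (Tnks2, Gm27177 and Nim1k).

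No gene next to one of the remaining loci was called by edgeR, other than Gm27177. Next to Nnt, Paip1, a regulator of translation, was 19.6 kb away (log2 fold change 0.20, SE 0.08, edgeR adjusted p = 0.164), and the growth factor gene Fgf10 lay 543 kb to the other side (-0.25, adjusted p = 0.608). Next to Entpd4 and Gm16867 were Slc25a37 and Gm27177, given above. Next to Gm5512 were Lpxn at 71.5 kb (-0.41, adjusted p = 0.606) and the odorant receptor gene Olfr1459 at 231 kb (-0.23, adjusted p = 0.697). Yy2 had Sms, the gene of spermine synthase, at 73.8 kb (-0.09, adjusted p = 0.736). Cyfip2 lay between the metalloprotease gene Adam19 at 46.5 kb (-0.86, SE 0.27, adjusted p = 0.114) and the Mediator subunit gene Med7 at 124 kb (0.17, adjusted p = 0.435).

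Other genes known to vary between or within C57BL/6 colonies were set beside the 9. Gabra2, the gene of a subunit of the GABA receptor, was at 0.78, 0.81 and 0.85 CPM in WT and 0.99, 1.59 and 1.87 CPM in ADCY3∆AT. Its libraries did not overlap, but it was not called (log2 fold change 0.86, SE 0.32, edgeR adjusted p = 0.164). Dock2, an activator of Rac in blood cells, overlapped between genotypes and was not called either (0.11, SE 0.40, edgeR adjusted p = 0.906). Crb1 and Nlrp12 were below 0.4 CPM in every library and were not tested.

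A list of relatives and working partners of the 9 genes held ectonucleotidases, M16 peptidases, the FGF carrier Fgfbp1, WDFY proteins with Tlr3 and its adaptor Ticam1, Yy1 and Zfp42, subunits of the WAVE complex, and mitochondrial enzymes of NADPH and glutathione. Of its 40 genes, 32 were tested, 1 was called higher and 0 lower in ADCY3∆AT, and 7 had an unadjusted p under 0.05, beside 4.3% called and 3234 of 14332 at an unadjusted p under 0.05 in the whole table. The list's counts were thus near those of all genes. The called gene was Abi1, a subunit of the WAVE complex, to which the Cyfip2 protein also belongs. It held 27.3, 30.6 and 28.5 CPM in WT and 37.8, 39.1 and 36.7 CPM in ADCY3∆AT (log2 fold change 0.39, SE 0.08, edgeR adjusted p = 0.0314). Its libraries did not overlap, but the call ended without any 1 of the 6 libraries (0.0511 to 0.133). The median log2 fold change of the 32 tested genes was 0.00.

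For each gene, tested genes outside the 9 were ranked by likeness of profile over the 6 libraries, as a description. The measure was the root mean square difference of centred log2(CPM + 0.5), and the nearest genes were taken. For Ide they were Gm9762 (0.11) and Fzd6 (0.11), for Fgfbp3 Pik3r3 (0.14) and Arhgef33 (0.15), for Entpd4 Bahcc1 (0.14) and Srebf1 (0.14), and for Wdfy1 Tppp (0.15) and Plekhf1 (0.15). For Yy2 they were Adrb1 (0.33) and Tfrc (0.36). Gm16867, Gm5512 and either row of Nnt had no match as close among genes outside the 9. For both Gm16867 (0.68 and 0.71) and Gm5512 (0.85 and 0.71) they were 6430571L13Rik and Cish. The row ENSMUSG00000025453 of Nnt was nearest to Sfrp2 (0.69) and Ngef (0.71), and the row ENSMUSG00000116207 to Gm14434 (0.59) and Zfp968 (0.79). Each of these genes from outside the 9 lies on another chromosome than the gene it resembles. The profiles of the 9 were not compared with each other, so likeness among neighbours such as Ide and Fgfbp3 is not covered.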

How the data were processed

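The deposited values are estimated counts for each gene in 6 libraries, in 1 table. The submitters' processing notes name GRCm38, StringTie, Salmon and edgeR, with neither versions nor roles. The 9 genes and all lists were chosen with earlier results of these data known. Symbols came from GENCODE M21 (54131 of 54385 rows). Estimated counts were rounded, filtered with filterByExpr (minimum count 10, minimum total 15), scaled by TMM and tested with edgeR 4.0.16 in R 4.3.3 (quasi-likelihood F test, two-sided), with Benjamini-Hochberg adjustment over 14332 genes. CPM are TMM-scaled, and a positive log2 fold change means a higher level in ADCY3∆AT. The script was tested on simulated data. Sequence partners came from BLAST 2.17.0 (at least 90% identity over 200 bases), and summing the rows that share sequence was added after the data were seen. Named are all 9 genes, partners of at least 1 CPM, nearest tested and called neighbours, called genes of the lists of relatives and of substrain genes (or the 2 of smallest p; some results of the latter list are not reported here) and the 2 nearest profiles. Libraries of a genotype differed by more than counting noise. Alternatives were other scalings, filters, thresholds and windows, DESeq2 1.42.0, limma-voom (limma 3.58.1), the replicate number as a block, and each library left out.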

Additional observations from a re-analysis of the deposited data

How the results depend on the processing

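The count of called genes over the whole table, 616, was 993 with the Wald test of DESeq2, 1951 with no filter on low counts, 1375 at an adjusted p under 0.10, and 162 (without WT replicate 1) to 461 (without ADCY3∆AT replicate 1) with 1 library left out. The count of called neighbours, 3 of 73 tested, was 5 of 65 with DESeq2, beside 993 of 12938 in the whole table. With no filter it was 16 of 231, beside 1951 of 34083. At 0.10 it was 5 of 73, beside 1375 of 14332, and with 1 library left out it was 0 to 2. It was 3 of 46 tested within 0.5 Mb and 4 of 115 within 2 Mb. The count of called sequence partners, 1, was 0 with limma-voom, 2 with no filter, 2 at 0.10, and 0 to 1 with 1 library left out. The count of called relatives, 1, was 2 with no filter, 2 at 0.10, and 0 in each fit with 1 library left out.

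Libraries of the same replicate number were not seen to deviate together (correlations 0.001, -0.007 and -0.049). Pairs of unlike number gave -0.056 to 0.068. No pairing was thus detected, which cannot show that the numbers carry none. With the replicate number as a block 324 genes were called, with 0 neighbours, 0 partners and 0 relatives among them.

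Ide (-0.94 to -0.60), Fgfbp3 (-1.13 to -0.78), Entpd4 (-1.48 to -1.28) and Wdfy1 (1.75 to 1.84) kept their direction under all 14 other settings run, as did Gm16867, Gm5512 and Yy2, whose fitted values depend on the prior count. With rows that share sequence summed, the log2 fold change of Gm5512 turned from lower to 0.0857 and that of Yy2 came to -0.04. The Nnt row ENSMUSG00000025453 turned to -0.53 with limma-voom and to -2.17 without ADCY3∆AT replicate 2. Depth limits Cyfip2, Yy2, Fgfbp3 and Nnt most, at under 120 estimated counts per library each.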
